A study of Homo sapiens with 6 samples.

Results

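The genes described here are 9 genes of MHC class I antigen presentation, chosen by gene name out of 29638 gene rows: the heavy chain genes HLA-B, HLA-C, HLA-E and HLA-F, the light chain gene B2M, the peptide loading genes TAP1, TAP2 and TAPBP, and NLRC5. Each name had 1 row, and all 9 had a mean of at least 1 RPKM (read density scaled to transcript length and library size) over the libraries, the level required for testing, as did 14159 rows in all. Their identifiers were ENSG00000234745.11 (HLA-B), ENSG00000204525.16 (HLA-C), ENSG00000204592.9 (HLA-E), ENSG00000204642.14 (HLA-F), ENSG00000166710.19 (B2M), ENSG00000168394.11 (TAP1), ENSG00000204267.14 (TAP2), ENSG00000231925.11 (TAPBP) and ENSG00000140853.15 (NLRC5). Their transcripts were measured by RNA sequencing in AC16, a human line derived from adult ventricular cardiomyocytes fused to fibroblasts carrying SV40 large T, genotype WT by the labels. The labels call the cells cardiomyocytes, and of 13 listed cardiomyocyte markers 11 were below the level tested, among them TNNT2 and MYH7, sarcomere genes that did not exceed 0.15 and 0.02 RPKM in any library. The other two were GATA4, a cardiac transcription factor, at 12.7, 10.78 and 10.3 RPKM in PA and 11.33, 11.01 and 10.35 RPKM in control, and TNNI3, cardiac troponin I, at 3.30 ± 0.695 RPKM in PA and 0.913 ± 0.418 RPKM in control (SD, n = 3 each). There were 3 libraries of cells given PA and 3 of cells given ethanol, the vehicle (control). The treatment is called PA because its name differs between the title of the series (palmitic acid, saturated) and the sample labels (palmitelaidic acid, unsaturated). The sources used here give neither dose nor time. No label states that replicate libraries were grown as separate cultures, so the p-values weigh the groups against the spread among these 6 libraries alone, and that spread may be technical.

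Class I molecules display short peptides, mostly cut by the proteasome from proteins of the cell, to CD8 T cells, and they are also read by receptors of natural killer cells. The peptides are pumped into the endoplasmic reticulum by the transporter TAP, made of TAP1 and TAP2, and are loaded with the help of tapasin, the product of TAPBP, onto a heavy chain paired with beta-2 microglobulin, the product of B2M. Most cell types carry some class I at their surface, heart muscle little, and interferons raise it through IRF factors and through NLRC5, a coactivator that acts on class I promoters. HLA-B and HLA-C are classical heavy chains that present many peptides, while HLA-E and HLA-F are non-classical ones with few variants.

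The promoters were searched for motifs of interferon-responsive and class I genes, and the upstream windows of the 3 heavy chain genes above control in every PA library, with those of the transporter pair, are shown for comparison. RefSeq promoters of build GRCh38.p14, from 250 bases before to 50 after a gene start, were given for 7 of the 9 genes, 8 promoters in all, since TAP1 has a pair of starts. Capitals mark matches on either strand to 4 motifs: the core of the interferon-stimulated response element (AGTTTC, any 2 bases, TT), the tandem IRF motif (GAAA, any 2 bases, GAAA), CCAAT, and the NF-kB consensus. The first and second overlap in HLA-F and B2M. Each line gives the gene and the bases, 5′ to 3′ on the gene's strand.
HLA-F: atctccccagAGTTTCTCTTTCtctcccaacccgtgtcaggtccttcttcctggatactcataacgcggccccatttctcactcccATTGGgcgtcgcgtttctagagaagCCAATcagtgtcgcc
HLA-B: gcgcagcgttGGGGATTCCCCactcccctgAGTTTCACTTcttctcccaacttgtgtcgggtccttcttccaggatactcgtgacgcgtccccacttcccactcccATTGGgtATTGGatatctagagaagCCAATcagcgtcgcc
HLA-C: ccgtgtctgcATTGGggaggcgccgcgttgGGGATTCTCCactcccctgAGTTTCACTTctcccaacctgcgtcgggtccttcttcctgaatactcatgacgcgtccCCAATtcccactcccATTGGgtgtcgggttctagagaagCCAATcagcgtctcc
TAP1: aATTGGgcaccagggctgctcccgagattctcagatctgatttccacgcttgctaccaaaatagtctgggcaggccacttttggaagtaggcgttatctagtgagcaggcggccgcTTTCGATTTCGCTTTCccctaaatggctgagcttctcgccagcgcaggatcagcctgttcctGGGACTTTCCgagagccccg
TAP2: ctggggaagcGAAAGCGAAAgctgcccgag

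The windows lie at chr6:29723266-29723391 on the plus strand for HLA-F and, on the minus strand, at chr6:31357221-31357366 for HLA-B, chr6:31272134-31272294 for HLA-C, chr6:32853757-32853954 for TAP1 and chr6:32838778-32838807 for TAP2. The response element core was found in 4 of the 8 promoters, those of HLA-B, HLA-C, HLA-F and B2M, against 1.57% of 35116 RefSeq promoters of the same length. The tandem motif was found in 5 of 8, those of HLA-F, B2M, TAP1, TAP2 and TAPBP, against 3.57% of all. The NF-kB consensus was found in 5 of 8 (HLA-B, HLA-C, B2M, TAP1 and TAPBP, against 5.91%) and CCAAT in 5 of 8 (HLA-B, HLA-C, HLA-F, B2M and TAP1, against 34.6%). The second promoter of TAP1 held none of the 4, and apart from CCAAT no motif of the complex that recruits NLRC5 was searched. The motifs were chosen with the sequences in view, and a match is a description of letters, not evidence of binding.

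HLA-F was higher in PA and was the one gene of the 9 past the threshold, a limma adjusted p under 0.05. HLA-B, HLA-C and TAP1 also lay above control in every PA library, and NLRC5 lay below it in every PA library, without passing. HLA-E, B2M, TAP2 and TAPBP had overlapping groups. Among all tested genes 681, or 4.81%, passed, with 402 (2.84%) higher and 279 (1.97%) lower in PA. Groups that did not overlap were found for 32.6% of tested genes, 16.7% with PA above and 15.9% with PA below, against 4 and 1 of these 9. The median log2 fold change of the 9 was 0.19, and that of all tested genes -0.02. Fold changes are PA over control on the log2(RPKM + 1) scale, on which changes at low RPKM appear smaller than they are.

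**Figure D1:**
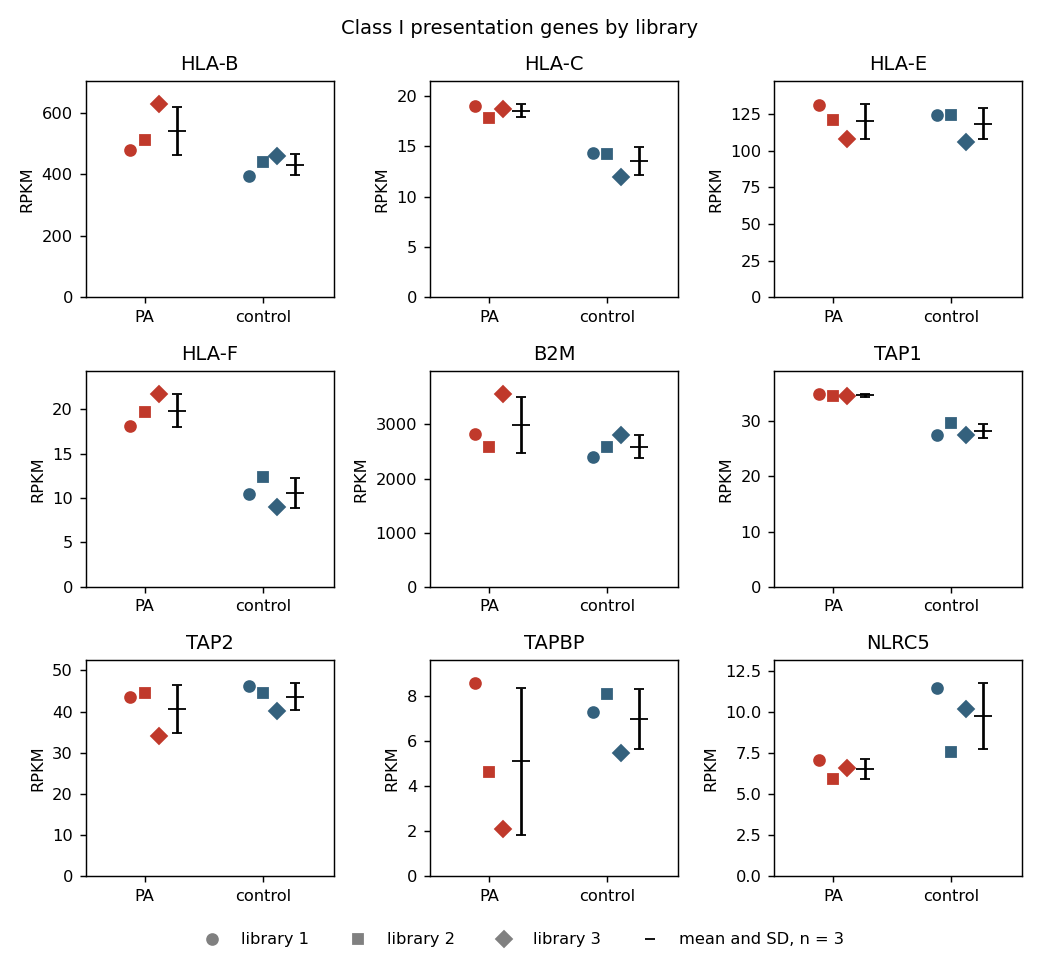
RPKM of the 9 class I presentation genes in each library (vertical axes, from 0 and different in each panel), PA left and control right, with mean and SD over 3 libraries beside the points. HLA-B, HLA-C, HLA-F and TAP1 sit above control in all 3 PA libraries, NLRC5 sits below, and TAPBP spreads from 2.09 to 8.55 RPKM within PA.

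Among the heavy chain genes, differences between one gene and another were not tested. HLA-F, whose product is a non-classical chain recognised by natural killer receptors, was at 18.08, 19.67 and 21.74 RPKM in PA libraries 1 to 3, against 10.4, 12.35 and 9.01 RPKM in control libraries 1 to 3. The lowest PA library was above the highest control library, and the ratio of means was 1.87. HLA-F averaged 19.8 ± 1.84 RPKM in PA and 10.6 ± 1.68 RPKM in control (SD, n = 3 each), which is 0.85 ± 0.14 (SE) in log2 fold change (limma adjusted p = 0.0252). With each library left out in turn, HLA-F passed in 2 of 6 fits, with limma adjusted p-values from 0.0466 to 0.121. The call was lost without control 1 (adjusted p = 0.121), control 2 (0.0517), control 3 (0.0816) or PA 2 (0.121).

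HLA-B, a classical chain that presents peptides to CD8 T cells, was the highest of the heavy chain genes, at 480.37, 510.62 and 628.38 RPKM in PA and 394.69, 439.05 and 460.83 RPKM in control. All PA values were above all control values, with PA 3 the highest. Its log2 fold change was 0.32 ± 0.13 (unadjusted 95% interval 0.02 to 0.61) and did not pass limma (adjusted p = 0.171). HLA-C, the other classical chain, had 19.05, 17.79 and 18.75 RPKM in PA against 14.37, 14.28 and 11.92 RPKM in control. The groups again did not overlap. Its log2 fold change of 0.43 ± 0.11 (0.17 to 0.69) had a limma adjusted p of 0.0657.

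HLA-E, which presents leader peptides of other class I chains to the NKG2 receptors of natural killer cells, showed no such separation. It was at 131.61, 120.83 and 108.08 RPKM in PA and 124.49, 124.91 and 106.32 RPKM in control. The ranges nearly coincided, the log2 fold change was 0.02 ± 0.12, and its interval of -0.25 to 0.29 lay wholly below the interval of HLA-F, 0.54 to 1.17. HLA-F over HLA-E within a library was 0.137, 0.163 and 0.201 in PA, against 0.0835, 0.0989 and 0.0847 in control, given as a description. HLA-G, a further non-classical chain, stayed below the level tested, at 0.17, 0.27 and 0.21 RPKM in PA and 0.08, 0.09 and 0.08 RPKM in control. Other classical heavy chain genes were not analysed here.

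Taken as a sum, HLA-B, HLA-C, HLA-E and HLA-F had 649.1, 668.9 and 777.0 RPKM in PA and 543.9, 590.6 and 588.1 RPKM in control. The mean was 698.3 ± 68.8 RPKM in PA and 574.2 ± 26.2 RPKM in control (SD, n = 3 each), given with no test because the genes were chosen together. HLA-B made up 74.0% to 80.9% of the sum in PA and 72.6% to 78.4% in control, so that gene was most of the sum in every library.

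B2M encodes the light chain with which class I heavy chains pair in peptide loading. Its level was 2819.46, 2577.82 and 3566.32 RPKM in PA against 2391.11, 2579.67 and 2801.44 RPKM in control. The groups overlapped, and PA 3 stood highest. The log2 fold change was 0.19 ± 0.14 (-0.13 to 0.52), with a limma adjusted p of 0.414. B2M exceeded 99.7% of tested genes in mean RPKM, HLA-B 98.6% and HLA-E 93.3%, whereas HLA-C and HLA-F exceeded 56.8% and 55.2%. B2M over the summed heavy chains was 4.26 ± 0.375 in PA and 4.51 ± 0.221 in control (SD, n = 3 each).

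Neither transporter gene passed the test. TAP1 was nearly constant within PA, at 34.93, 34.48 and 34.6 RPKM, against 27.41, 29.61 and 27.41 RPKM in control. All PA values were higher, and the log2 fold change of 0.29 ± 0.09 (0.07 to 0.51) did not pass limma (adjusted p = 0.107). TAP2, whose product forms the other side of the transporter, was at 43.42, 44.38 and 34.02 RPKM in PA and 46.24, 44.56 and 40.12 RPKM in control. The groups overlapped and PA 3 was the lowest library, with a log2 fold change of -0.11 ± 0.13 (-0.41 to 0.19). TAP1 over TAP2 was 0.804, 0.777 and 1.02 in PA and 0.593, 0.664 and 0.683 in control, so every PA library was above every control library in this ratio, which was not tested.

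TAPBP, the gene of the loading chaperone tapasin, varied most within a group. It had 8.55, 4.64 and 2.09 RPKM in PA and 7.29, 8.09 and 5.49 RPKM in control. PA 1 was the highest of all 6 libraries and PA 3 the lowest, so the log2 fold change of -0.52 ± 0.37 (-1.36 to 0.33; limma adjusted p = 0.403) gives no direction. It was -0.10 without PA 3 and -0.92 without PA 1. NLRC5, the coactivator of class I genes, was at 7.1, 5.93 and 6.57 RPKM in PA, against 11.47, 7.54 and 10.17 RPKM in control. Each PA value was below each control value, by a narrow margin to control 2. The log2 fold change of -0.50 ± 0.16 (-0.86 to -0.13) had a limma adjusted p of 0.106.

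By mean RPKM, which is a level per transcript length, the order in PA was B2M, HLA-B, HLA-E, TAP2, TAP1, HLA-F, HLA-C, NLRC5 and TAPBP. In control it was the same but for HLA-C, which stood before HLA-F. Neighbours with overlapping library ranges in PA were TAP2 and TAP1, HLA-F and HLA-C, and NLRC5 and TAPBP. In control they were HLA-C and HLA-F, HLA-F and NLRC5, and NLRC5 and TAPBP.

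Over the 6 libraries, HLA-F varied most closely with TAP1 (Pearson r = 0.97) and HLA-C (r = 0.95) and against NLRC5 (r = -0.89), while B2M varied with HLA-B (r = 0.90) and against TAP2 (r = -0.97). These values include the difference between the groups and the size of each library's values, and are descriptions over 6 points. No trend with transcript length or GC content was removed from them, and its part in them was not tested. The genes outside the 9 whose levels were most like the mean pattern of the 9 were MYC (r = 0.997), GPAA1 (0.994), AKIP1 (0.988), TMEM198B (0.987) and ATG16L2 (0.987), over the same 6 libraries. None of these 5 genes passed limma, with log2 fold changes from 0.31 for MYC to 0.50 for GPAA1. Their r values are the highest found among all other genes of at least 10 RPKM with an approved symbol, and no link to the 9 was tested. The mean pattern averages scaled values of genes that partly vary against each other, so likeness to it need not hold for single members. It was highest in PA 1, at 0.52 against 0.11 in PA 3, whereas HLA-B, HLA-F and B2M were highest in PA 3.

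**Figure D2:**
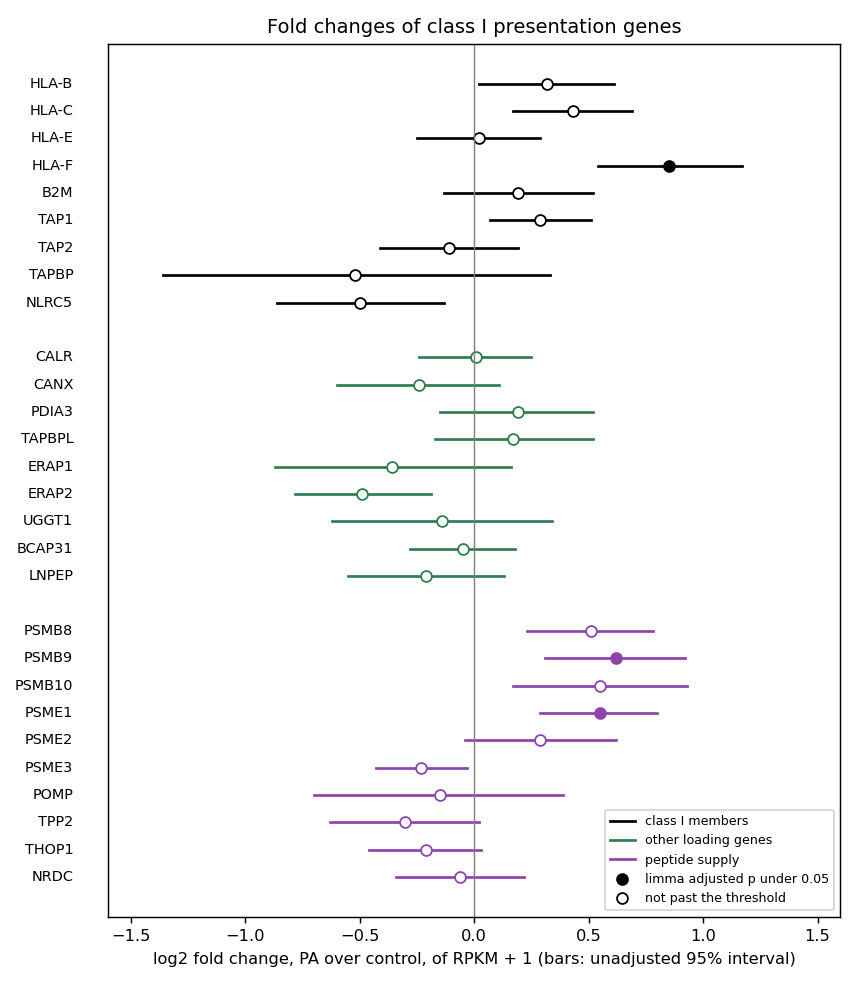
Log2 fold change of RPKM + 1, PA over control (horizontal axis), with unadjusted 95% intervals from limma, for the 9 genes (black), other loading genes (green) and genes of peptide supply (purple). Filled points passed a limma adjusted p of 0.05: HLA-F, PSMB9 and PSME1.

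In a list of immunoproteasome subunits, their activator and peptidases, 2 of 10 tested genes passed as higher in PA and none as lower. Of all tested genes 2.84% passed as higher and 1.97% as lower. PSMB9, a catalytic subunit of the immunoproteasome whose gene lies beside TAP1, was at 37.93, 37.3 and 40.41 RPKM in PA and 22.04, 29.71 and 23.18 RPKM in control. All PA values were above control, by 0.62 ± 0.13 in log2 fold change (limma adjusted p = 0.0419). PSME1, a subunit of the PA28 activator that caps the proteasome, averaged 177.9 ± 13.9 RPKM in PA and 121.5 ± 10.3 RPKM in control (SD, n = 3 each), or 0.55 ± 0.11 in log2 fold change (limma adjusted p = 0.0369). Neither call held in any of the 6 fits without 1 library. The remaining catalytic subunits, PSMB8 and PSMB10, were named for their role beside PSMB9 after their values were seen.

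PSMB8 was at 69.88, 70.97 and 82.8 RPKM in PA and 53.18, 56.74 and 46.65 RPKM in control. PSMB10 was at 23.32, 26.17 and 30.03 RPKM in PA and 18.73, 20.92 and 14.09 RPKM in control. Both lay above control in every PA library and neither passed, with log2 fold changes of 0.51 and 0.55 and limma adjusted p-values of 0.0524 and 0.0893. Of the list's 10 tested genes 4 lay above control in every PA library and 3 below it, against 16.7% and 15.9% of all tested genes. The 3 below were PSME3, the PA28 gamma activator, and the peptidase genes TPP2 and THOP1, with log2 fold changes of -0.23, -0.30 and -0.21, none past the threshold. Fold changes were positive for 5 and negative for 5 of the 10, with a median of 0.12. Among 5 constitutive proteasome genes none passed, with a median of 0.15. The most abundant were PSMA7, with a log2 fold change of 0.22 ± 0.14, and PSMB4, with 0.15 ± 0.12.

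Among 9 other loading genes of the endoplasmic reticulum none passed, 3 had positive and 6 negative values, and the median was -0.14. The highest levels were those of CALR, the chaperone calreticulin, at 330.7 ± 11.8 RPKM in PA and 329.7 ± 31.6 RPKM in control, and PDIA3, its partner disulfide isomerase, at 314.5 ± 57.5 RPKM in PA and 273.8 ± 19.5 RPKM in control (SD, n = 3 each). Of 13 genes of class I degradation and traffic none passed, 11 had negative values, 5 lay below control in every PA library and 0 above it (15.9% and 16.7% of all tested genes), and the median was -0.19. The most abundant of these were TRAM1, a translocon protein, with a log2 fold change of -0.25 ± 0.11, and SEC61A1, the translocon channel, with -0.09 ± 0.12.

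Other class I and class I-like genes passed as higher in PA in 2 of 10 tested members, against 2.84% of all tested genes. PROCR, the endothelial protein C receptor, was at 78.79, 76.55 and 85.57 RPKM in PA against 57.56, 59.71 and 53.44 RPKM in control (log2 fold change 0.49 ± 0.10, limma adjusted p = 0.0386). FCGRT, the heavy chain of the neonatal Fc receptor, which also pairs with beta-2 microglobulin, was at 13.5, 16.11 and 14.77 RPKM in PA and 9.27, 10.99 and 8.23 RPKM in control (0.59 ± 0.13, limma adjusted p = 0.0475). Neither call held in any fit without 1 library. Neither product presents peptides, and in the list 4 values were positive and 6 negative, with a median of -0.06. The class I pseudogenes and transcripts of the region had 3 tested members with none past the threshold and a median of 0.27. HCP5 was at 0.29 ± 0.15 and HLA-L at 0.14 ± 0.15 on the log2 scale.

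Of 17 tested transcription factors of class I promoters 1 passed as higher in PA, against 2.84% of all tested genes. This was RFXANK, a subunit of the RFX complex to which NLRC5 is recruited. RFXANK was at 36.19, 39.76 and 44.67 RPKM in PA and 23.88, 28.98 and 20.57 RPKM in control, 0.70 ± 0.15 in log2 fold change (limma adjusted p = 0.0409). All PA values were higher, but the call held in none of the 6 fits without 1 library. The list's median was -0.06, with 7 positive and 10 negative values. IRF1, which acts on class I promoters after interferon and was named after its values were seen, had a log2 fold change of -0.36 ± 0.14 with overlapping groups (limma adjusted p = 0.146).

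No interferon ligand was tested, since IFNE averaged 0.37 RPKM, below the level required, and IFNB1, IFNG and IFNL1 had no row. Of 11 tested genes of interferon receptors and signalling 1 passed as lower in PA, against 1.97% of all tested genes. This was IFNAR1, a chain of the type I interferon receptor. It was at 26.09, 24.72 and 22.1 RPKM in PA and 37.56, 35.5 and 35.75 RPKM in control, -0.56 ± 0.10 in log2 fold change (limma adjusted p = 0.0333), a call held in 1 of 6 fits without 1 library. Interferon-stimulated genes passed as higher in PA in 2 of 31 tested members, against 2.84% of all tested genes. ISG20, an exonuclease, had a log2 fold change of 0.88 ± 0.15 and UBE2L6, the conjugating enzyme of ISG15, one of 0.51 ± 0.11, and both passed limma (adjusted p = 0.0279 and 0.0426). Without 1 library ISG20 passed in 1 of 6 fits and UBE2L6 in 0 of 6. The median was 0.13, and 10 of the 31 lay above and 2 below control in every PA library, against 16.7% and 15.9% of all genes.

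Class II presentation genes had 6 tested members of 14 listed, with none past the threshold and a median of 0.34. The most abundant were IFI30, a lysosomal thiol reductase, with a log2 fold change of 0.46 ± 0.17, and HLA-DPB1, with 0.45 ± 0.19 and overlapping groups. HLA-DPA1, named after its values were seen, had -0.32 ± 0.18. Fold changes were positive for 4 and negative for 2 of the 6. CIITA, the class II coactivator related to NLRC5, was below the level tested, at 0.27, 0.25 and 0.08 RPKM in PA and 0.16, 0.38 and 0.35 RPKM in control. Over the 10 lists together 8 genes of 115 tested passed, which is to be read beside the 4.81% of all genes.

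The transcripts share sequence with other genes, which can move reads between rows. In windows of 50 bases along the longest protein-coding transcript of each gene in GENCODE 29, HLA-F shared 41.7% with some other gene, TAP2 35.8%, HLA-B 21.0% and TAP1 15.2%, on either strand. Most of this was shared with genes whose exons overlap the same locus, and with genes elsewhere HLA-F shared 1.70%, HLA-B 1.47%, TAP1 1.07% and TAP2 0.550%. HLA-C shared 5.65% and HLA-E 5.76% with genes elsewhere, TAPBP 6.69%, and B2M and NLRC5 0%. HLA-B and HLA-C overlapped each other in exons on the same strand, so the values for genes elsewhere leave out sharing between them. With any other gene HLA-C shared 6.71%, and with other members, namely HLA-B, HLA-E and HLA-F, 3.72%. HLA-B averaged 485.7 RPKM over all libraries and HLA-C 16.0 RPKM. Whether reads of HLA-B entered the HLA-C values was not tested. The antisense gene HLA-F-AS1, which overlaps HLA-F, was at 1.31, 0.94 and 2.12 RPKM in PA and 1.22, 1.03 and 1.07 RPKM in control, and the other genes overlapping HLA-F in exons, AL645939.1 and RPL23AP1, averaged 0.012 and 0.240 RPKM over all libraries. The sources used here state neither the use of strand nor the treatment of shared reads, so single HLA values, and those of TAP1 and TAP2 beside overlapping genes, are uncertain.

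**Figure D3:**
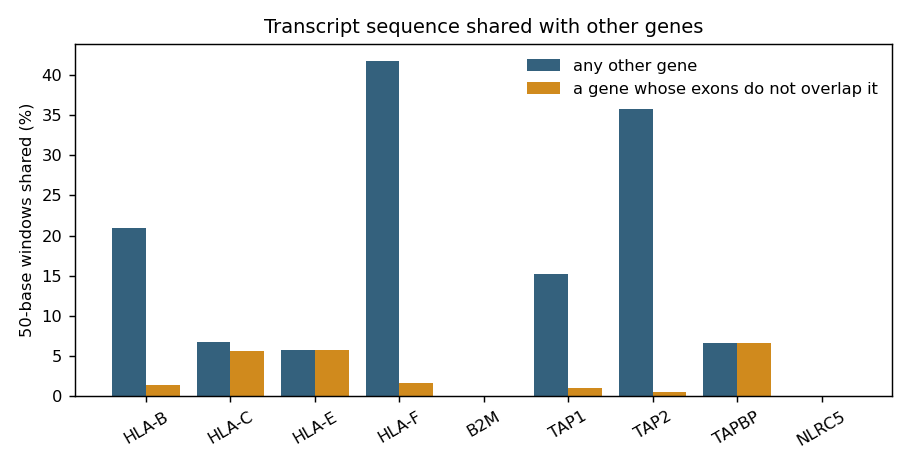
Share of 50-base windows of each gene's longest protein-coding transcript (vertical axis, percent) that occur in a transcript of any other gene (blue) or of a gene whose exons do not overlap it (orange). HLA-F reaches 41.7% in blue and 1.70% in orange, and B2M and NLRC5 are at 0.

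Sums of RPKM per library lay between 733025 and 881369, PA 3 being the highest, and the depth relative to the other libraries, judged from steps of low values, lay between 0.93 and 1.16, PA 1 being the highest. Rescaling to a common sum took the median over all tested genes to -0.11 in log2 fold change, against -0.02 as deposited, and it moved HLA-B to 0.21, HLA-C to 0.33, TAP1 to 0.19 and HLA-F to 0.75. Of 2 tested cardiomyocyte markers 1, TNNI3, passed as higher (log2 fold change 1.18 ± 0.20, limma adjusted p = 0.0288), against 2.84% of all tested genes. The summed level of the list, mostly GATA4, was 14.6 to 17.7 RPKM in PA and 13.0 to 13.9 RPKM in control. Of 11 listed leukocyte markers 8 were below the level tested, and PTPRC, the common leukocyte antigen, did not exceed 0.03 RPKM. The sum of that list was 70.4 to 80.7 RPKM in PA and 47.9 to 59.3 RPKM in control, mostly CD68. Of its 3 tested genes 1, CD14, passed as higher (log2 fold change 0.72 ± 0.12, limma adjusted p = 0.0288), against 2.84% of all tested genes. Endothelial markers summed to 56.7 to 61.2 RPKM in PA and 28.1 to 41.4 RPKM in control, mostly EGFL7. Of 8 listed only 2 were tested, TIE1 and EGFL7, and both passed as higher, against 2.84% of all tested genes. VWF and CDH5 did not exceed 0.18 and 0.06 RPKM, and TEK averaged 0.04 RPKM in PA and 0.133 RPKM in control. Fibroblast markers summed to 2471 to 2567 RPKM in PA and 2683 to 3189 RPKM in control, mostly VIM. Of 9 tested 2 passed as lower, COL3A1 and FAP, against 1.97% of all tested genes. Values were negative for 8 and positive for 1, COL1A2 (0.18 ± 0.11). COL1A1 averaged 138.7 ± 51.6 RPKM in PA and 299.2 ± 27.8 RPKM in control (SD, n = 3 each), without overlap (log2 fold change -1.18 ± 0.27, limma adjusted p = 0.0510). Fits with a library left out are not given for the marker genes, so how far their calls depend on a single library is not known. The part of these marker levels in the class I values was not tested, and in bulk RNA fewer cells of a type and less RNA per cell cannot be told apart.

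**Figure D4:**
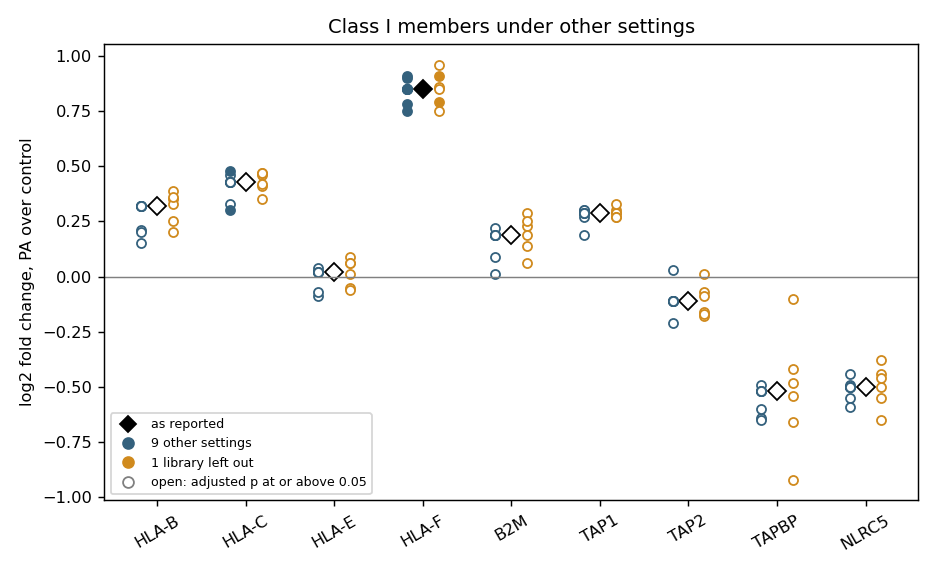
Log2 fold change, PA over control (vertical axis), of the 9 genes as reported (diamonds), under 9 other settings (blue) and with 1 library left out (orange), filled where the limma adjusted p was under 0.05. HLA-F stays between 0.75 and 0.96, HLA-E and TAP2 lie on both sides of 0, and TAPBP ranges from -0.92 to -0.10.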

How the data were processed

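The deposited values are RPKM with 2 decimals, made by the authors from 6 RNA sequencing libraries, 3 PA and 3 control. Per the submitters' processing notes, which give no role or version, the tools were FastQC, fastp, HISAT2, StringTie and RSEM, on hg19. Libraries were prepared from total RNA with a SMARTER mRNA kit, per the labels' protocols. Read depth is unknown.

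Values entered limma 3.58.1 (R 4.3.3; moderated two-sided test with a variance trend) as log2(RPKM + 1) without covariates, for the 14159 genes averaging at least 1 RPKM, with Benjamini-Hochberg adjustment over all of them at a threshold of 0.05. With 3 libraries a group, exact permutation p-values have a minimum of 0.1, so none was used.

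The members, the 10 pathway lists and the 4 marker lists were chosen with earlier results of these data known. Named are the 9 members, up to 4 passing genes of each pathway list by absolute fold change or else its 2 most abundant, and the 5 genes of at least 10 RPKM and an approved symbol most like the members' mean pattern. The genes named outside this rule are marked in the text or are markers, overlapping genes, interferon ligands, HLA-G, CIITA, PSME3, TPP2 and THOP1. GENCODE 29 and the RefSeq promoters are on another build than the files and were used for sequence only.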

Additional observations from a re-analysis of the deposited data

How the results depend on the processing

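Alternatives covered the pseudocount, the filter, scaling, a trend with length and GC content, the variance trend, a replicate block and each library left out; protein-coding genes alone was added after the data were seen. Genes past the threshold numbered 681 as reported, 72 without a filter, 98 with a replicate block, 1893 with the length and GC trend removed, 1157 with protein-coding genes alone, and 10 to 364 with 1 library left out. Of the 9 members 1 passed as reported, 0 without a filter and with the replicate block, 2 with quantile normalization and with the length and GC trend removed (HLA-C in addition to HLA-F), and 0 to 1 with 1 library left out. Of the genes of the pathway lists 8 passed as reported, 0 without a filter and with the block, 4 without the variance trend, 5 with a common sum, 20 with the length and GC trend removed, 13 with protein-coding genes alone, and 0 to 1 with 1 library left out. The cause of these moves was not tested, except that a fit without a library has fewer samples.

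HLA-F kept a fold change of 0.75 to 0.96 and passed in 7 of 9 settings other than left-out libraries; its limma adjusted p was 0.0723 without a filter and 0.063 with the block. HLA-C passed with quantile normalization (0.48, limma adjusted p = 0.0479) and with the trend removed (0.30, 0.0411). HLA-E turned to -0.09 with a common sum, -0.07 with quantile normalization, -0.05 without PA 1 and -0.06 without control 3 (-0.06 to 0.09 with 1 library left out), and TAP2 to 0.03 with the trend removed and 0.01 without PA 3 (-0.18 to 0.01 with 1 library left out). The other members kept their sign in all 15 alternatives. Equal replicate numbers correlated at 0.157, -0.014 and 0.037 in their deviations from the group means, and unequal numbers at -0.179 to 0.121. With 3 libraries a group these values cannot show whether equal numbers shared a culture or day. RPKM without counts limits what can be said of error in the low genes TAPBP and NLRC5.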
